A study of Mus musculus with 8 samples.

Results

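Fatty acid oxidation genes were examined in mouse liver carrying a recombinant adenovirus (rAd.) for the NF-κB inhibitor A20 or for the control protein β-galactosidase (βgal), before and after extended liver resection. The set was a list of 38 genes for the enzymes, carriers and transporters that break down fatty acids, chosen by name. Of these, 37 were read, each through a probe set assigned to that gene alone, among 17790 genes tested, and all 37 passed the filter on low signal. Acsl1 had no such probe set in the annotation used and is only named. By textbook location, 16 of the 37 encode mitochondrial proteins, 16 encode peroxisomal proteins, and 5 (Crat, Ech1, Slc27a2, Slc27a5 and Acsl5) belong to both organelles or to other membranes.

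All animals were 8-week-old BALB/c mice that received a recombinant adenovirus by vein 5 days before a resection of 78% of the liver, so that no group lacked virus. The 4 groups were pre-βgal and pre-A20, the resected liver taken at operation, and post-βgal and post-A20, the remnant 24 h later. Each group had 2 Affymetrix Mouse Genome expression arrays, and each array carried pooled RNA from 3 mice, so the spread between arrays is a spread between pools. rAd.A20 carried full-length human A20, and transgenes reached 30% to 40% of hepatocytes, so each liver mixed transduced and untransduced cells. In the labels, the protocol of the post-A20 group names βgal, so its identity rests on titles and source names.

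β-oxidation removes acetyl-CoA units from a fatty acyl-CoA by dehydrogenation, hydration, a further dehydrogenation and thiolytic cleavage. Mitochondria carry this out on most dietary chain lengths and pass the electrons on through electron transfer flavoprotein, whereas peroxisomes shorten very long, branched and dicarboxylic acids and bile acid precursors, and hand the products on as carnitine esters or free acids. In liver many genes of both routes are targets of the nuclear receptor PPARα, which binds DNA as a dimer with RXR at DR1 elements.

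The arrays did not have equal readings on the controls for intact RNA. The 3′ to 5′ signal ratio for the β-actin control was 7.0 on pre-βgal array 1 and 3.64 on post-βgal array 1, and lay between 1.27 and 1.62 on the other 6 arrays. The GAPDH ratio was 3.44 on the pre-βgal array and 1.48 on the post-βgal array, against 0.975 to 1.16 elsewhere. The summed signal of 5 hepatocyte markers (Alb, Apoa1, Ttr, Tat and Cps1) ranged from 63235 to 73896, and none of the 5 passed the test in any comparison. Alb, Apoa1 and Ttr were the brightest and weighed most in the sum. Tat varied more, from 1766 on pre-βgal array 1 to 8760 on post-A20 array 2. The summed signal of the 4 neutrophil markers read was 902 to 1453 on the A20 arrays and 1857 to 4680 on the βgal arrays. S100a8 (151 to 422 against 554 to 1837) and S100a9 (114 to 393 against 699 to 2159) carried that gap, while Ngp (476 to 523 against 414 to 547) and Camp (115 to 136 against 121 to 137) overlapped. Whole-liver RNA does not separate fewer cells of a type from less RNA per cell. The probe sets for mouse Tnfaip3, the A20 gene, are not known to read the human transgene and gave no check of it: the brighter of the 2 read 162 to 472 on the A20 arrays and 366 to 927 on the βgal arrays.

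The 37 members leaned towards higher signal with A20, and the lean was found in both organelles. Averaged over the time points, the difference A20 minus βgal was positive for 30 of 37 members, with a median of 0.25 on the log2(signal + 16) scale against -0.00 for all genes tested. Peroxisomal members had a median of 0.33 and mitochondrial members 0.27. Single genes seldom passed the test. The peroxisomal transporter Abcd3 and the acyl-CoA synthetase Slc27a2 rose with A20. The mitochondrial thioesterase Acot2 fell on the probe set read, but a dimmer probe set of it rose. After resection the genes did not move as a group: Acot2 and the peroxisomal isomerase Eci2 rose, while Acaa1b, Hadh and Slc27a5 fell.

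**Figure D1:**
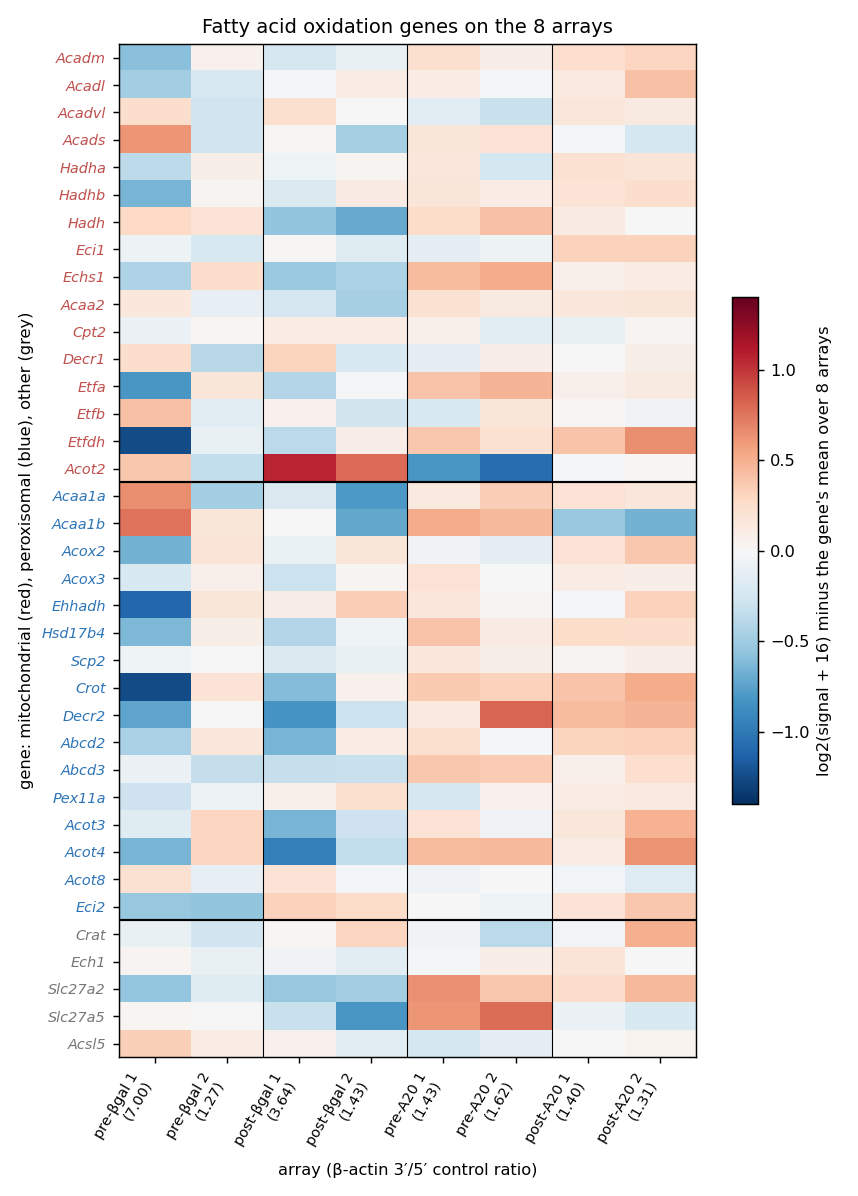
Log2(signal + 16) of the 37 members (down the side, coloured by compartment) on the 8 arrays (along the base, with the β-actin 3′/5′ ratio), each minus the member's own mean over the arrays, in red above and blue below it. Between 24 and 32 members lay above their own mean on each A20 array and between 13 and 19 on each βgal array. Acot2, on the probe set read, ran the other way.

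Relative to each gene's own mean over the 8 arrays, the median mitochondrial member stood at -0.08 and -0.11 in the pre-βgal arrays, -0.04 and -0.06 in the post-βgal arrays, 0.17 and 0.10 in the pre-A20 arrays and 0.12 and 0.12 in the post-A20 arrays (log2). Each A20 array was above each βgal array. The median peroxisomal member stood at -0.37 and 0.07, -0.25 and -0.04, 0.18 and 0.07, and 0.13 and 0.28 in the same order. Here the groups met at pre-βgal array 2 and pre-A20 array 2, and the lowest values were those of the βgal arrays with high 3′/5′ ratios.

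Called here means an adjusted p under 0.05 in limma, with Benjamini-Hochberg adjustment over the 17790 genes. For the transgene effect averaged over time, 3 of 37 members were called, against 5.39% of all genes. At an unadjusted p under 0.05, 18 members passed against 26.2% of all genes. Of these, 17 were higher with A20, against 11.4% of all genes that were higher at that threshold, and Acot2 alone was lower, against 14.8% of all genes. The 17 were 7 mitochondrial, 8 peroxisomal and 2 other members. Without both βgal arrays that had high 3′/5′ ratios, 12 members were higher at an unadjusted p under 0.05, against 8.36% of all genes, and the median over members was 0.22. Slc27a2 and Acaa1a, a peroxisomal thiolase, were then the members called.

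Abcd3, also known as PMP70, is a transporter in the peroxisomal membrane that takes up long-chain, branched and dicarboxylic acyl-CoA. Its signal was 4116 and 3460 before and 3488 and 3508 after resection with βgal, and 5661 and 5577 before and 4578 and 5132 after with A20. All 4 A20 arrays lay above all 4 βgal arrays. The averaged difference was 0.52 ± 0.11 (log2, SE), with an adjusted p of 0.0382 by limma.

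Slc27a2, or FATP2, takes up fatty acids and activates very long chains, in the endoplasmic reticulum and the peroxisome. It read 3839 and 4971 before and 3862 and 3996 after resection with βgal. With A20 it read 8737 and 7271 before and 6663 and 7694 after. The A20 arrays were again above every βgal array, and the averaged difference was 0.86 ± 0.13 (SE, adjusted p = 0.019 by limma). The differences at each time point were 0.87 ± 0.18 before (adjusted p = 0.0509) and 0.86 ± 0.18 after (adjusted p = 0.086), and neither alone passed the threshold in limma.

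Acot2, a mitochondrial thioesterase that releases free fatty acids from acyl-CoA, went the other way on the probe set read. Signals were 1158 and 696 before and 1873 and 1547 after resection with βgal, and 498 and 415 before and 869 and 907 after with A20. The averaged A20 difference was -0.94 ± 0.18 (SE, adjusted p = 0.0321 by limma). Within each time point the A20 arrays were below the βgal arrays, but post-A20 overlapped pre-βgal. A dimmer probe set of Acot2 read 137 and 130, 216 and 287, 236 and 241, and 273 and 481 in the same order, with an averaged A20 difference of 0.64, opposite in sign. With the mean of both probe sets, the difference was -0.15 (adjusted p = 0.491 by limma), so that the direction of Acot2 with A20 rested on the probe set. Acot2, Acot3 and Acot4 are close paralogs in 1 gene cluster, and how their probes share transcripts was not tested.

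Leaving out an array, which leaves 1 in its group, ended most of these calls. Without any of the post-βgal, pre-A20 or post-A20 arrays, the members lost their calls for the averaged A20 effect, and calls over all genes fell too. Without pre-βgal array 1 the same members were called. Calls rose, over all genes too, without pre-βgal array 2, which leaves the array with the 3′/5′ ratio of 7.0 as the only pre-βgal value. The differences themselves stayed within 0.46 to 0.58 for Abcd3, 0.77 to 0.96 for Slc27a2 and -1.12 to -0.76 for Acot2. S100a8 and S100a9, though not Ngp and Camp, were also lower on all 4 A20 arrays. The summed signal of 5 stellate cell markers leaned up with A20 (4184 to 5093 against 3257 to 4191), and none of them was called. Among other cell types, 1 Kupffer cell marker and 1 sinusoidal endothelium marker were called for the averaged A20 effect. The part of cell composition in the A20 differences of the members was not tested.

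**Figure D2:**
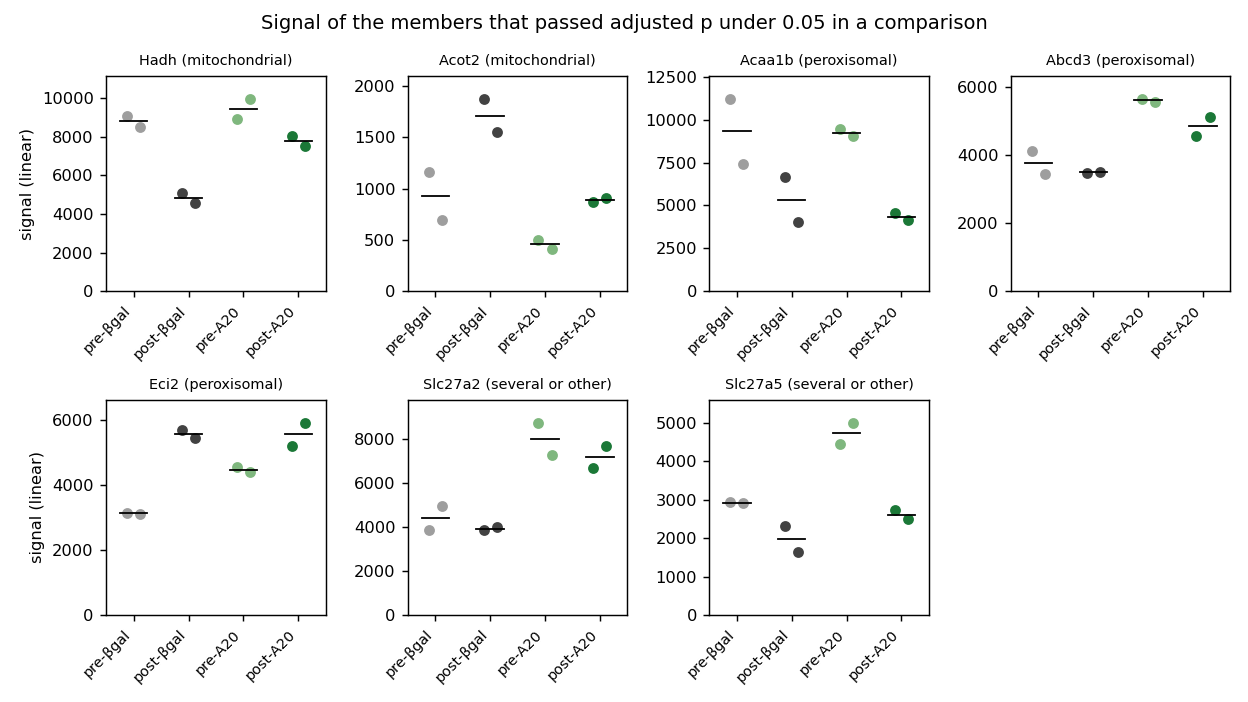
Linear array signal of the 7 members that passed an adjusted p under 0.05 in at least 1 comparison, with a point for each of the 2 arrays of a group and a bar at their mean. Abcd3 and Slc27a2 were higher on every A20 array, Eci2 and Acot2 were higher after resection, and Hadh, Acaa1b and Slc27a5 were lower after it.

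The order of the arrays was also read directly. In 8 of 37 members all 4 A20 arrays lay above all 4 βgal arrays, against 5.7% of all genes, and in none did all lie below, against 5.26% of all genes. The 8 were Acadm and Etfdh among mitochondrial members, Abcd3, Hsd17b4, Scp2, Crot and Decr2 among peroxisomal members, and Slc27a2. This order holds for the probe set read. Other kept probe sets had averaged A20 differences of -0.04 for Crot, 0.17 for Hsd17b4, 0.27 for Etfdh, and 0.31, 0.68 and -0.20 for Scp2. On these the groups overlapped, except on the Scp2 probe set at 0.31.

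Decr2, the peroxisomal 2,4-dienoyl-CoA reductase needed for unsaturated chains, had the highest averaged A20 difference of the 37 members, 0.93 ± 0.23 (SE), with an adjusted p of 0.0566 by limma. Its signal was 800 and 1341, then 754 and 1094 with βgal, and 1488 and 2375, then 1831 and 1879 with A20. The groups did not overlap, but the spread within them left the gene short of the threshold.

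Crot, which makes medium-chain carnitine esters for export from the peroxisome, read 1046 and 2875 before and 1648 and 2629 after resection with βgal, and 3246 and 3138 before and 3320 and 3612 after with A20. Etfdh, which passes electrons from flavoprotein to ubiquinone, read 860 and 1927, then 1598 and 2219 with βgal, and 2708 and 2411, then 2741 and 3281 with A20. In both genes the lowest array was pre-βgal array 1. The averaged differences were 0.80 ± 0.30 for Crot and 0.82 ± 0.25 for Etfdh (adjusted p = 0.15 and 0.0944 by limma).

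Among the other 3, Acadm, the medium-chain acyl-CoA dehydrogenase, read 3022 to 4736 on the βgal arrays and 4819 to 5579 on the A20 arrays. Hsd17b4, the main peroxisomal bifunctional enzyme for branched chains, read 1938 to 3166 and 3255 to 3957. Scp2, a peroxisomal thiolase and sterol carrier, read 10471 to 12110 and 12368 to 13306. The differences of these 3 were 0.43, 0.51 and 0.18, and none passed the adjusted threshold.

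Before resection none of the 37 members was called between pre-A20 and pre-βgal, against 2.5% of all genes, and 10 passed an unadjusted p under 0.05 (8 higher, 2 lower), against 21.8% of all genes. Mitochondrial differences ran from -0.96 for Acot2 to 0.98 for Etfdh and peroxisomal ones from -0.08 for Acot8, a thioesterase, to 0.87 for Crot. Among the other members, Acsl5 was at -0.41 and Slc27a2 at 0.87. Median differences were 0.10 for mitochondrial and 0.22 for peroxisomal members, against -0.03 for all genes.

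At 24 h none was called between post-A20 and post-βgal, against 0.332% of all genes, and 10 passed the unadjusted threshold (9 higher, 1 lower), against 19.6% of all genes. Mitochondrial differences ran from -0.93 for Acot2 to 0.69 for Hadh, and peroxisomal ones from -0.25 for the thiolase Acaa1b to 1.02 for Acot4. Among the others, Crat, the carnitine acetyltransferase, was at 0.06 and Slc27a2 at 0.86. Medians were 0.25 and 0.36, against 0.03 for all genes. These comparisons use different arrays for each time point, and neither time point can be said to carry more of the A20 difference from the count of calls.

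**Figure D3:**
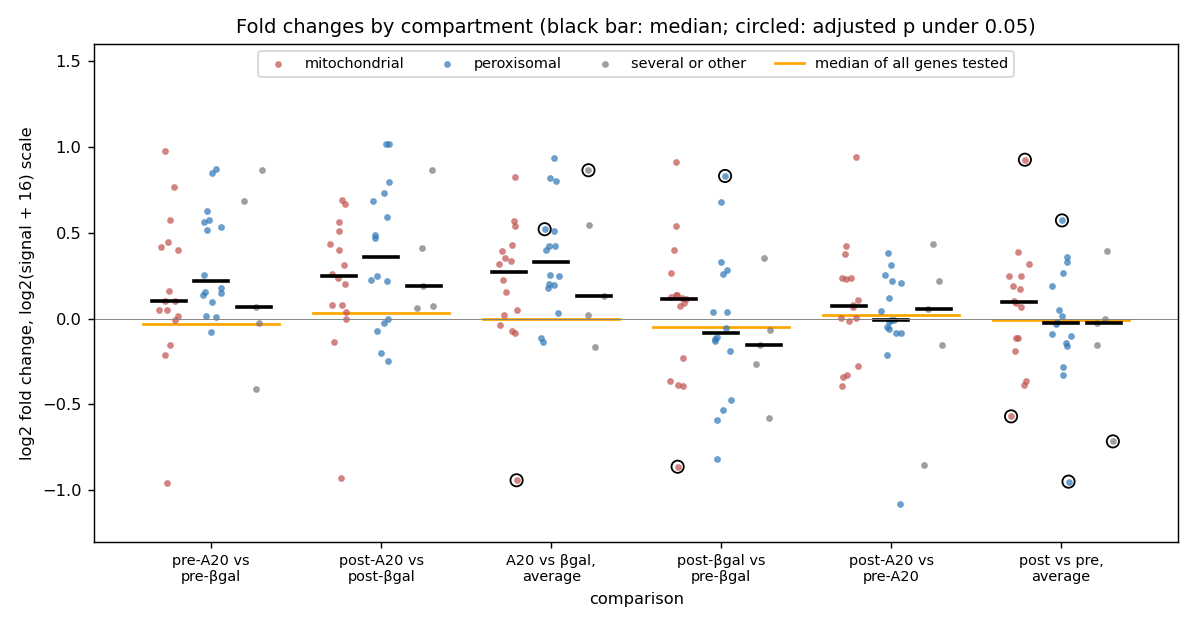
Log2 fold change of each member on the log2(signal + 16) scale in 6 comparisons (x axis), coloured by compartment, with black bars at class medians, orange lines at the median of all 17790 genes and circles around members called. With A20 both organelles lay above the orange line (averaged medians 0.27 and 0.33), whereas with resection points spread to either side of it.

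After resection single enzymes passed the test, in both directions. Averaged over transgenes, 5 of 37 members were called, against 4.76% of all genes, and 8 passed the unadjusted threshold (4 higher, 4 lower), against 20.9% of all genes. Of the 37 differences, 18 were positive and 19 negative. Medians were 0.10 for mitochondrial and -0.03 for peroxisomal members, against -0.01 for all genes. Without any of the post-βgal or A20 arrays, most or all of the 5 calls were lost, and calls over all genes fell too. Without pre-βgal array 2, calls rose among the members and over all genes. The summed signal of the 2 adipocyte markers read was 267 to 403 before and 1505 to 2412 after resection. Fabp4 carried the rise (215 to 349 before, 1413 to 2351 after), whereas Adipoq, the more specific marker, read 52 to 57 before and 53 to 91 after. Their part in these differences was not tested.

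Hadh, the mitochondrial 3-hydroxyacyl-CoA dehydrogenase for medium and short chains, fell with resection in the βgal livers. Its signal was 9092 and 8518 before and 5078 and 4593 after with βgal, and 8942 and 9962 before and 8067 and 7521 after with A20. The difference was -0.86 ± 0.13 (SE, adjusted p = 0.0264 by limma) with βgal and -0.28 ± 0.13 with A20 (adjusted p = 0.372 by limma), and on average it was -0.57 ± 0.09 (adjusted p = 0.0165 by limma). After-resection arrays lay below before-resection arrays in each transgene. The test of the difference between the responses gave 0.59 (adjusted p = 0.238 by limma), which did not pass. Another probe set of Hadh went from 3191 and 4054 to 2302 and 2632 with βgal and from 4486 and 4899 to 4184 and 3862 with A20, in the same direction. The probe set read for Hadh is of a type that can bind other transcripts.

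Eci2, the mainly peroxisomal enoyl-CoA isomerase for unsaturated chains, had the opposite course. It read 3161 and 3102 before and 5703 and 5463 after with βgal, and 4559 and 4396 before and 5220 and 5932 after with A20. It rose by 0.83 ± 0.14 (SE, adjusted p = 0.0323 by limma) with βgal and by 0.57 ± 0.10 on average (adjusted p = 0.0189 by limma). The pre-βgal arrays stood below all the others, and both remnants reached like signals. A20 minus βgal, the response differed by -0.52, which missed the threshold (adjusted p = 0.281 by limma).

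Acaa1b, a peroxisomal 3-ketoacyl-CoA thiolase, read 11202 and 7426 before and 6644 and 4008 after with βgal. With A20 it read 9433 and 9027 before and 4544 and 4168 after. It fell by 0.95 on the log2 scale on average (SE 0.19, adjusted p = 0.0335 by limma), with after-resection arrays below all before-resection arrays. The βgal pairs were farther apart than the A20 pairs. Its paralog Acaa1a, which shares much of its sequence, had an averaged difference of -0.33 and read 2608 and 1180, 1429 and 938, 1823 and 2099, and 1901 and 1844.

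Slc27a5, or FATP5, a bile acid-CoA ligase and fatty acid transporter of the hepatocyte, read 2950 and 2910 before and 2330 and 1642 after with βgal, and 4447 and 5010 before and 2729 and 2489 after with A20. It fell by 0.72 on average (SE 0.14, adjusted p = 0.0297 by limma). Within each transgene the remnant was lower, and both pre-A20 arrays were above all the others. Acot2 rose by 0.93 ± 0.18 on average (adjusted p = 0.0288 by limma), and its dimmer probe set rose in the same direction by 0.70 (log2).

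With βgal alone, 2 members were called after resection, Hadh and Eci2, against 2.25% of all genes, and 7 passed the unadjusted threshold (2 higher, 5 lower), against 22.2% of all genes. Mitochondrial differences ran from -0.86 for Hadh to 0.91 for Acot2, peroxisomal ones from -0.82 for Acaa1b to 0.83 for Eci2, and those of the others from -0.58 for Slc27a5 to 0.35 for Crat. Medians were 0.12 and -0.08 for the organelles, against -0.05 for all genes. No member was called when only the 4 βgal arrays were fitted or when both βgal arrays with high 3′/5′ ratios were left out. In these fits, and without any of the 8 arrays except pre-βgal array 2, calls over all genes fell too and Hadh and Eci2 lost theirs. Without pre-βgal array 2 Hadh and Eci2 kept their calls, and calls over all genes rose. That fit leaves the array with the highest 3′/5′ ratio as the only pre-βgal value.

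With A20 none was called, against 1.01% of all genes, and 4 passed the unadjusted threshold, against 15.4% of all genes: Acot2 and Eci1 were higher, and Acaa1b and Slc27a5 lower. Mitochondrial differences ran from -0.39 for Echs1, a hydratase, to 0.94 for Acot2, and peroxisomal ones from -1.08 for Acaa1b to 0.38 for Acox2, an oxidase of bile acid precursors. Among the others, Slc27a5 was at -0.85 and Crat at 0.44. Medians were 0.07 and -0.01, against 0.02 for all genes.

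The resection responses of the members were not shown to differ between transgenes. None of the 37 was called for that difference, and 0% of all genes were. At an unadjusted p under 0.05, 3 members passed (Acot3 and Hadh higher, Eci2 lower with A20), against 15.7% of all genes. The median difference of responses was 0.03 for mitochondrial and -0.00 for peroxisomal members, against 0.05 for all genes.

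The organelles differed by about the spread between arrays or less. The median of mitochondrial members minus that of peroxisomal members was -0.11 before and -0.11 after resection for A20, and 0.20 with βgal and 0.08 with A20 for resection. The spread of such a difference, pooled over the arrays of all 4 groups, came to 0.198. The widest pair was pre-βgal, at 0.30 and -0.19, and no spread was taken from the groups of 1 comparison alone. For the averages it was -0.06 for A20 and 0.12 for resection, against a spread of 0.14. Only the βgal resection value reached the pooled spread (0.20 against 0.198), and it became -0.03 without post-βgal array 1 and -0.04 without pre-βgal array 2. Other comparisons passed their pooled spread under some alternatives. The largest of these was the A20 value before resection, -0.42 without pre-βgal array 2. With Ech1 and Crat counted as mitochondrial, Slc27a2 as peroxisomal and Eci2 left out, the A20 values were -0.26 at 24 h and -0.22 on average. The averaged resection value reached 0.20 without post-βgal array 2.

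The spread between arrays was itself wider for these genes than for the rest of the genome in the βgal groups. The median absolute difference between the 2 arrays of a group was 0.528 for the members in pre-βgal, 0.265 in post-βgal, 0.137 in pre-A20 and 0.0857 in post-A20 (log2). For all genes it was 0.185, 0.134, 0.137 and 0.119. In pre-βgal 19 of 37 members differed by more than 0.5 and in post-βgal 8 did, against 1 in pre-A20 and 2 in post-A20. Of all genes, 14.7%, 4.26%, 5.64% and 3.22% did in the same order. The pre-βgal differences, array 2 minus array 1, ran from -1.13 for Acaa1a to 1.45 for Crot. Peroxisomal members were higher on array 2, with a median of 0.38 in pre-βgal and 0.26 in post-βgal, while mitochondrial members had medians of 0.01 and -0.08. Array 1 was in each case the array with the high 3′/5′ ratio, and the part of RNA integrity in this spread was not tested.

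**Figure D4:**
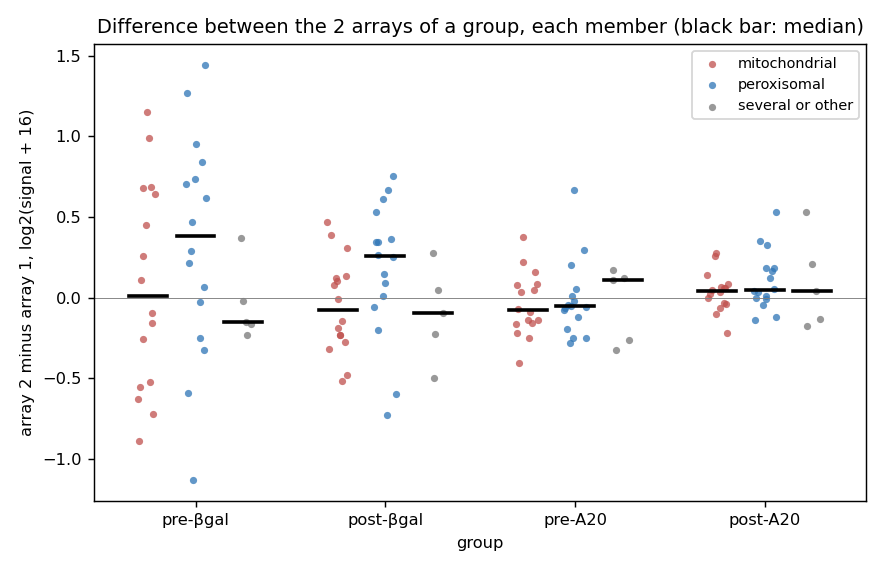
Difference between the 2 arrays of each group (array 2 minus array 1, log2(signal + 16)) for each of the 37 members, coloured by compartment, with black bars at class medians. The points spread from -1.13 to 1.45 in pre-βgal and lie closer to 0 in both A20 groups.

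Probe sets of a gene did not always share a direction. Of the 17 members with more than 1 kept probe set, all probe sets had the same sign in 7 and differed in sign in 10 for the averaged A20 effect. For the averaged resection effect the counts were 11 and 6. Acaa2, the mitochondrial thiolase, had averaged A20 differences of 0.33, 0.48 and 1.28 on its 3 probe sets, alike in sign but not in size. The last of these probe sets read 749 on pre-βgal array 1 and 3398 on pre-βgal array 2. Abcd3, Slc27a2, Slc27a5, Eci2 and Acaa1b had only 1 kept probe set each.

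Other genes of the pathway gave a wider range. Of 30 further fatty acid oxidation genes tested, 4 were called for the averaged A20 effect, against 5.39% of all genes. Phyh, which starts the peroxisomal α-oxidation of phytanic acid, rose by 1.13, the peroxisomal CoA hydrolase Nudt7 by 0.89 and the thioesterase Acot12 by 0.83, and Acot9, a mitochondrial thioesterase, fell by 0.77 (adjusted p = 0.0246, 0.0246, 0.0447 and 0.0348 by limma). The median over the 30 was 0.15. Cpt1a, the carnitine palmitoyltransferase that controls entry into mitochondria, had a difference of 1.14 ± 0.36 (adjusted p = 0.1 by limma), with signals of 605 and 1901, 2160 and 3142, 3947 and 2479, and 3675 and 5282. Its lowest array was again pre-βgal array 1, and its groups overlapped.

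Nudt7 differed between times. It read 2111 and 1922 before and 2236 and 1703 after with βgal, and 6037 and 8139 before and 2066 and 1836 after with A20, so that only the pre-A20 arrays were high. Nudt7 was called before resection (1.79 higher with A20, adjusted p = 0.0189 by limma) and for resection with A20 (fell by 1.84, adjusted p = 0.0144 by limma). In the same list Acot12 and Eci3 were called higher before resection with A20 (1.33 and 0.49), and none of the 30 was called at 24 h, where 11 passed the unadjusted threshold, against 19.6% of all genes. With βgal, resection raised Slc22a5, the plasma membrane carnitine transporter, by 1.53 and Acot9 by 1.16, whereas Pecr, a peroxisomal enoyl-CoA reductase, fell by 1.17 (log2; adjusted p = 0.0151, 0.0406 and 0.0309 by limma). On average over transgenes, Slc22a5 and Acot9 rose, and Acad8, Acot13, Nudt7 and Pecr fell.

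Among 4 genes of ω-oxidation, in which cytochrome P450 enzymes make dicarboxylic acids that peroxisomes take up, only Cyp4a14 was called. It read 814 and 1221 before and 1988 and 2421 after with βgal, and 195 and 125 before and 1074 and 2038 after with A20. Its pre-A20 arrays were below all the others, and the A20 difference before resection was -2.56 ± 0.35 (SE, adjusted p = 0.0243 by limma). Resection with A20 raised it by 3.12 ± 0.35 (adjusted p = 0.0144 by limma). Bdh1, the only ketone body synthesis gene read, had an averaged A20 difference of 0.68 (adjusted p = 0.036 by limma).

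Of 12 genes of peroxisome biogenesis, 1 was called higher before resection with A20, Pex26, at 0.74 (adjusted p = 0.0494 by limma), against 2.5% of all genes. At an unadjusted p under 0.05 before resection, 6 were higher and 1 lower, against 21.8% of all genes in either direction. At 24 h only 1 passed, lower with A20, against 19.6%. The median of the 12 was 0.49 before resection and -0.01 at 24 h. None of them was called for the averages, where 5 passed the unadjusted threshold for A20, against 26.2% of all genes, and 2 for resection, against 20.9%. Of 6 regulators, Ppara, which encodes PPARα, rose with A20 by 1.24 ± 0.23 on average (adjusted p = 0.0296 by limma). Its signals were 573 and 971, then 575 and 899 with βgal, and 1556 and 2280, then 1597 and 1652 with A20, without overlap. Ppargc1a, a coactivator of PPARα, rose with resection by 0.91 ± 0.15 on average (adjusted p = 0.0158 by limma). Lpin1, another coactivator, rose with resection in βgal livers by 1.77 ± 0.31 (adjusted p = 0.0373 by limma). With A20 Lpin1 read 819 and 632 before and 453 and 614 after, a difference of -0.44 that was not called. The difference between its responses, -2.21, was not called either (adjusted p = 0.212 by limma).

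DR1 elements were looked for in the RefSeq promoter windows (build GRCm38.p6, 250 bases before to 50 after the start). DR1 was written as AGGTCA followed by any 1 base and AGGTCA again in the same direction, on both strands, with up to 2 mismatches in the 12 fixed letters. Of the 38 genes listed, 32 were in the table, and Abcd2, Acaa2, Crat, Decr1, Hsd17b4 and Slc27a5 were not. A match was found for 4 of 32 members (12.5%) and for 1190 of 27025 genes (4.4%). Mitochondrial and peroxisomal members each had 2 of 14, and these were Echs1 and Etfa, and Acot4 and Acox2. None of the called members with a window had one, and these letters alone say nothing of binding.

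The matches before the start are shown because Acot4, Echs1 and Etfa were among the members higher with A20 at an unadjusted p under 0.05, each with the DR1-like letters in capitals and read on the strand of the gene. The stretches are chr12:84038351-84038378 (plus strand) for Acot4, chr7:140116477-140116519 (minus) for Echs1 and chr9:55512293-55512335 (minus) for Etfa.
Acot4: ctcagccccgaagcaTGACCTTTGGCCG
Echs1: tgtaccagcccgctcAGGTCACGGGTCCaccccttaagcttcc
Etfa: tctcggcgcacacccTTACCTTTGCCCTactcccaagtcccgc
The 100 bases before the start of Slc27a2 (chr2:126552924-126553023, plus strand) and Acot2 (chr12:83987761-83987860, plus strand) are shown beside them as those of the called members with the highest and lowest A20 difference, and hold no such match.
Slc27a2: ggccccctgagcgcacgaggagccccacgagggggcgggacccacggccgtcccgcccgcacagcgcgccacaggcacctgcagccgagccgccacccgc
Acot2: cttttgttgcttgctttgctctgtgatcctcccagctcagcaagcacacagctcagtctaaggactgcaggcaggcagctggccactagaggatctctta

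Acot4, Echs1 and Etfa were picked for their A20 difference, so their values cannot test a link between match and response. Acox2, the remaining member with a match, read 1559 and 2812 before and 2322 and 2794 after with βgal. With A20 it read 2386 and 2257 before and 2840 and 3228 after, so its groups overlapped (averaged difference 0.20). Acot4 read 137 and 281 before and 108 and 173 after with βgal. With A20 it read 312 and 314 before and 242 and 357 after. Echs1 read 2013 and 3228, then 1897 and 2003 with βgal, and 3695 and 3920, then 2856 and 2928 with A20. Etfa, a subunit of electron transfer flavoprotein, read 2046 and 4079, then 2730 and 3575 with βgal, and 4794 and 5060, then 3820 and 3946 with A20. Within each time point the A20 arrays lay above the βgal arrays in Acot4, Echs1 and Etfa. Across time points, pre-βgal array 2 was above both post-A20 arrays in Echs1 and Etfa, and between them in Acot4.

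Several central enzymes differed little, whereas some other members named here differed by more than the median member (0.25). For the averaged A20 effect Cpt2, Acadvl, Acads, Etfb and Decr1 lay between -0.09 and 0.05, and Ech1, which is found in both organelles, at 0.13. For Cpt2, the inner-membrane carnitine palmitoyltransferase, signals lay between 2193 and 2621 on all 8 arrays and the groups overlapped. Hadha and Hadhb, the subunits of the trifunctional protein, had averaged differences of 0.15 and 0.35. Pex11a, which acts in peroxisome division, was at 0.03 on the probe set read. Its other probe set was at -0.09 on average and -0.45 at 24 h. That probe set differed with resection by 0.74 with βgal and 0.01 with A20, and none of these values passed the adjusted threshold. Acadl, the long-chain acyl-CoA dehydrogenase, was at 0.32 and Eci1, the mitochondrial isomerase, at 0.23. Among peroxisomal genes, the oxidases Acox2 and Acox3 were both at 0.20, the bifunctional enzyme Ehhadh at 0.25, the transporter Abcd2 at 0.42 and the thioesterase Acot3 at 0.40. Acadl and Acot3 were among the 17 members higher at an unadjusted p under 0.05, and neither was called. Missing the threshold does not show that these genes were unaffected.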

How the data were processed

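Per the labels, total liver RNA was labelled with biotin and hybridised to Affymetrix Mouse Genome arrays. The deposited values are linear, normalised intensities of 45101 probe sets. The authors' methods describe dChip with invariant-set normalisation and a perfect-match model, whereas GEO's records list MAS5, and the sources used here do not say which program produced these values. The members and lists were chosen with earlier results of these data known.

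The intensities were taken as log2(signal + 16). A probe set was kept where any group mean reached 40 (42703 probe sets), and a gene took the values of its brightest single-symbol probe set (17790 genes; 34945 probe sets had 1 symbol, 932 several and 9160 none). limma 3.58.1 in R 4.3.3 was fitted to all 8 arrays with a mean per group and a variance trend over the kept probe sets, with 4 residual degrees of freedom, and tested on simulated data. All 7 comparisons were 2-sided with Benjamini-Hochberg adjustment over genes, and the comparisons share arrays. An offset of 16 understates changes of dim genes. With 2 arrays a group, the number of arrays limits precision. Values of each array are given for members called in any comparison, and the members highest and lowest in each class are named for each two-group comparison. Members shown for the order of their arrays, for their promoters or as examples were chosen after their values were seen. Promoter windows were RefSeq's. Protein sequences were not used here. Alternatives changed the probe set, offset, filter, normalisation, variance trend, block, RNA integrity term, arrays and call rule.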

Additional observations from a re-analysis of the deposited data

Results flagged for a closer look

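Acsl5, a long-chain acyl-CoA synthetase, had array values that ran in opposite directions after resection in the transgene groups. It read 4851 and 4122 before and 4017 and 3435 after with βgal, and 3233 and 3492 before and 3853 and 3970 after with A20. Both post-βgal arrays lay below both pre-βgal arrays (log2 difference -0.27), and both post-A20 arrays lay above both pre-A20 arrays (0.22). Neither response passed the test (unadjusted p = 0.133 with βgal and 0.208 with A20 by limma). With 2 arrays a group such an order can arise without a response, and its share over all genes is not given here. A20 minus βgal, the response differed by 0.48 on the log2 scale, and this missed the threshold (adjusted p = 0.343 by limma, unadjusted p = 0.0641).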

How the results depend on the processing

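On the probe set read or the mean of probe sets, no difference of the 7 called members changed sign, and the counts moved more than the values. The counts over all 17790 genes (33500 probe sets where each was tested separately) moved too, and are given in brackets. Where leaving out an array moved the count of members, the count over all genes moved the same way. Members called for the averaged A20 effect, 3 (959), became 7 (1280) with the β-actin 3′/5′ ratio as a covariate, 6 (1474) with every probe set tested separately, 6 (1365) with the mean of probe sets, 5 (1203) without a variance trend, and 0 to 14 leaving out each array, with 14 (2707) without pre-βgal array 2. Before resection, 0 (444) became 5 (1094) with the covariate, 1 (640) with the mean of probe sets, 1 (386) with median centring, 2 (572) without the trend, 1 (442) with an offset of 64, and 0 to 10 leaving out each array. At 24 h, 0 (59) became 5 (682) with the covariate, 1 (242) with only the 4 arrays compared, and 0 to 3 leaving out each array. For resection with A20, 0 (180) became 3 (1052) with the covariate, 3 (506) with only the 4 arrays compared, 3 (517) without both βgal replicate 1 arrays, and 0 to 1 leaving out each array. For resection with βgal, 2 (400) became 6 (2362) with the covariate, 1 by a fold criterion (lower end of the 90% interval at 1.5 or above), 0 (8) with only the 4 arrays compared, 0 (122) without both βgal replicate 1 arrays, and 0 to 3 leaving out each array. For averaged resection, 5 (846) became 2 by the fold criterion and 0 to 8 leaving out each array.

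Same-numbered arrays deviated together between pre-βgal and post-βgal (r = 0.617 over genes) but not between pre-A20 and post-A20 (r = -0.018). Over the 37 members these were 0.86 and -0.34. Across transgenes the members gave 0.46 for pre-βgal and 0.54 for post-βgal with post-A20, against 0.16 and -0.02 over genes. With pre-A20 they gave -0.19 and -0.24, against -0.14 and -0.12. The labels do not say whether a number marks the same animals, so the pairing is unknown. With the replicate number as a block, calls for the averaged A20 effect became 5 (1242). With the block within transgene they became 13 (2752) for averaged A20, 7 (1915) before resection, 7 (1016) at 24 h, 3 (686) for resection with A20 and 4 (1585) for resection with βgal.

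The mitochondrial minus peroxisomal median for averaged A20 became -0.22 with the members of both organelles assigned, against a spread of 0.14. Leaving out each array it ran from -0.42 to 0.01 before resection and from -0.04 to 0.25 for resection with βgal, against a spread of 0.198. Members higher with A20 at an unadjusted p under 0.05 (17) ran from 9 to 21 leaving out each array. With 2 arrays a group, a sample left alone in its group is assumed to vary like the others.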
